A study of Homo sapiens with 4 samples.

Results

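Nuclear genes for the subunits of respiratory complexes I to V were followed in A549, a long-established cell line from a human lung adenocarcinoma. Members were found by symbol: NDUFA, NDUFB, NDUFC, NDUFS and NDUFV genes for complex I, SDHA to SDHD for complex II, UQCR genes for complex III, COX5 to COX8 genes for complex IV and ATP5 genes for complex V. NDUFA4 and symbols with a hyphen were left out. Of 26255 symbols in the files, 82 matched, and the 73 with a mean of at least 1 FPKM over the libraries were kept: 36 of 36 in complex I, 4 of 4 in complex II, 8 of 10 in complex III, 10 of 15 in complex IV and 15 of 17 in complex V. FPKM is a count of sequenced fragments scaled to transcript length and library depth.

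The study had 4 groups of unmodified A549 cells with 1 RNA-seq library each. They were 3D hypoxia and 3D normoxia, grown on a set bed of Matrigel (a basement membrane extract), and 2D hypoxia and 2D normoxia, grown on a dish. Culture lasted 5 days with 5% serum in each group, and hypoxia was 1% oxygen. The study compared these cultures to characterise structures that the cells form in 3D under hypoxia. All results concern a single cancer cell line, and nothing in the labels says whether a library holds pooled wells or a separate experiment.

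The respiratory chain sits in the inner mitochondrial membrane. Complex I takes electrons from NADH and complex II from succinate, complex III passes them from ubiquinol to cytochrome c, complex IV passes them to oxygen, and complexes I, III and IV pump protons, whose return through complex V, the ATP synthase, drives ATP synthesis. Complexes I, III, IV and V combine nuclear and mitochondrially encoded subunits, while complex II is wholly nuclear. Cells short of oxygen are known to lean on glycolysis, and the HIF transcription factors switch on genes that hold back mitochondrial oxidation. The 13 mitochondrially encoded subunits were not among the symbols of the files and are not analysed here.

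Depth was inferred from the smallest steps in FPKM at about 11400000 fragments in 3D hypoxia, 11800000 in 3D normoxia, 38900000 in 2D hypoxia and 23800000 in 2D normoxia. A member rested on a median of 900 (3D hypoxia), 1197 (3D normoxia), 2741 (2D hypoxia) and 1776 (2D normoxia) fragments. FPKM summed to 596102 in 3D hypoxia, 543547 in 3D normoxia, 519824 in 2D hypoxia and 473503 in 2D normoxia. All 10 hypoxia check genes, CA9 and VEGFA among them, rose with hypoxia (limma, highest adjusted p = 0.0404), beside 3.2% of all genes. The list was chosen with earlier results of these data known, so it is not an independent check. With no filter on low values limma called 5 genes in all for hypoxia, so not all of the 10 calls were kept. All 6 epithelial markers were at 1 FPKM or more in each library, though EPCAM, an epithelial adhesion molecule, was low (1.43 to 2.73 FPKM). Endothelial markers summed to 0.165 to 0.457 FPKM, and the 6 blood markers to 41.2 FPKM in 3D hypoxia, 43.8 in 3D normoxia, 16.7 in 2D hypoxia and 31.5 in 2D normoxia. CD68 (13.1 to 31.6 FPKM) and CD14 (3.44 to 11.4 FPKM) made up most of the blood sum, while the leukocyte gene PTPRC was at or near 0 and the T cell gene CD3E at 0. The 6 fibroblast markers summed to 0.771, 0.913, 14.2 and 2.73 FPKM in 3D hypoxia, 3D normoxia, 2D hypoxia and 2D normoxia, where COL1A1, a collagen gene, made up 13.2 of the 2D hypoxia sum. The part of these shifts in the results was not tested.

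The subunit genes were among the abundant mRNAs of these cells, and complexes IV and V stood highest. The median subunit of complex IV was at 362 FPKM in 3D hypoxia, 498 in 3D normoxia, 292 in 2D hypoxia and 346 in 2D normoxia. For complex V the medians were 207, 228, 177 and 209 FPKM in the same order of libraries, and for complex I 87.1, 98.3, 68.6 and 75.8. Complex III lay at 67.7, 90.7, 69.0 and 73.8 FPKM, below complex I in every library but 2D hypoxia, and complex II was lowest at 43.3, 52.5, 39.4 and 42.2. The median of all genes that reached the same floor lay between 10.5 and 10.8 FPKM.

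**Figure D1:**
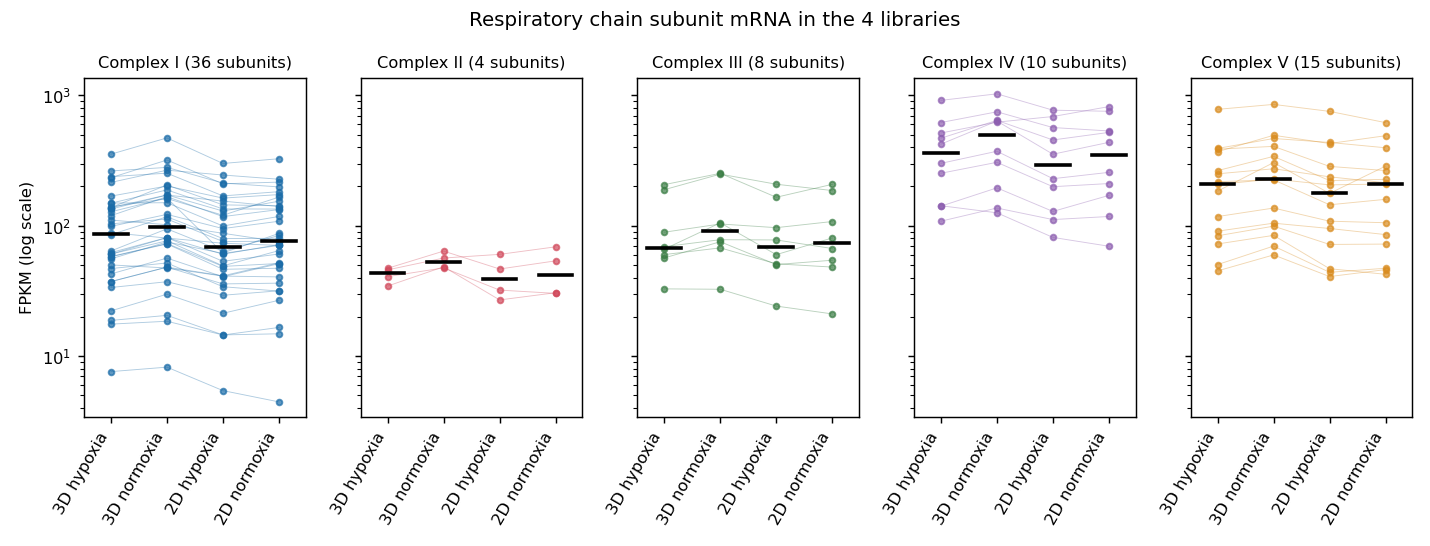
FPKM (log axis) of each of the 73 subunit genes in the 4 libraries, by complex; points are genes, thin lines join a gene across libraries and black bars are medians. The order of genes within a complex is nearly the same in the 4 libraries, and each complex has its highest median in 3D normoxia.

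The 73 genes together took 2.03% of the FPKM sum in 3D hypoxia, 2.72% in 3D normoxia, 2.14% in 2D hypoxia and 2.47% in 2D normoxia. Their split between complexes hardly moved. Complex I held 31.2% of the members' sum in 3D hypoxia, 31.3% in 3D normoxia, 30.02% in 2D hypoxia and 30.6% in 2D normoxia. Complex IV held between 32.0% and 33.3%, complex V between 28.0% and 29.6%, complex III between 6.35% and 6.62% and complex II between 1.39% and 1.57%. Ranked by level, the members kept nearly the same order, with Spearman's rho between 0.979 and 0.988 for the 4 pairs of libraries compared (73 genes, which share transcript lengths and are not replicates). Levels within a complex spread widely. COX7C, a small subunit of complex IV, stood at 915 FPKM in 3D hypoxia, 1027 in 3D normoxia, 769 in 2D hypoxia and 754 in 2D normoxia. At the other end NDUFA5, an accessory subunit of complex I, stood at 7.62 FPKM in 3D hypoxia, 8.24 in 3D normoxia, 5.45 in 2D hypoxia and 4.46 in 2D normoxia.

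The 9 symbols under the floor were tissue-restricted isoforms and copies. COX6A2, COX7B2, COX8C and ATP5L2 were listed at 0 in all 4 libraries. COX7A1, the heart and muscle isoform of its subunit, reached at most 0.17 FPKM, and COX6B2, a testis isoform, at most 0.354. UQCRHL, a copy of UQCRH, reached 0.236 FPKM, the copy UQCRBP1 0.04 and the pseudogene ATP5EP2 0.496. The subunits with such isoforms were thus read from COX6A1, COX6B1, COX7A2, COX7B and COX8A here. On the near side of the floor, NDUFA5 was the lowest member.

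The highest of a gene's 4 levels lay in 3D normoxia for 63 of 73 members, beside 24.0% of all genes, in 3D hypoxia for 5 (23.6% of all genes), in 2D normoxia for 5 (26.4%) and in 2D hypoxia for 0 (25.9%). All 15 complex V genes, 31 of 36 in complex I, 8 of 10 in complex IV, 6 of 8 in complex III and 3 of 4 in complex II had their highest level there. The lowest level lay in 2D hypoxia for 41 members (23.55% of all genes), in 2D normoxia for 21 (22.7%) and in 3D hypoxia for 11 (28.6%). Both the 3D hypoxia comparison and the normoxia comparison of cultures use the 3D normoxia library, so their values are not independent. With the FPKM of every library brought to the same sum of 1000000 (equal-sum scaling), the count in 3D normoxia was 53 of 73, beside 20.7% of all genes.

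In 3D, subunit mRNAs of all 5 complexes stood lower in hypoxia than in normoxia, each by a small step. The log2 ratio of FPKM + 1 (hypoxia over normoxia) was below 0 for 68 of 73 members, beside 52.0% of all genes, with a median of -0.30, a ratio of 0.811, beside -0.02 for all genes. The medians were -0.36 in complex II, -0.32 in complex I, -0.29 in complex IV, -0.25 in complex III and -0.22 in complex V. None of the 73 differed by 2-fold, beside 4.02% of all genes, and the ratios ran from -0.72 for ATP5G1 to 0.18 for COX7A2L. Below 0 were 33 of 36 members of complex I, 4 of 4 of complex II, 7 of 8 of complex III, 9 of 10 of complex IV and 15 of 15 of complex V. The distance between the lowest and the highest complex median was smaller than the SD of the 73 ratios, 0.18. The counting error of a ratio was between 0.02 and 0.18 (median 0.06), which covers the sampling of fragments only. In bulk RNA, a change in the RNA of each cell and a change in which cells are present cannot be told apart.

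In 2D the same contrast was nearer to 0. Members had a median log2 ratio of -0.08, with 48 of 73 below 0, beside 50.3% of all genes, and none differed by 2-fold, beside 3.6% of all genes. Complex II had a median of -0.18 (3 of 4 below 0), complex IV -0.12 (7 of 10) and complex I -0.10 (26 of 36). Complexes III and V both lay at -0.01, with 4 of 8 and 8 of 15 members below 0. The range was again from ATP5G1, at -0.69, up to ATP5E, at 0.29. The SD over the 73 members, 0.20, exceeded the distance between complex medians. The counts depended on scaling. With every library at an equal sum, 61 of 73 members were below 0 in 2D and 71 of 73 in 3D. The median of all genes then moved too, to -0.13 in 2D and -0.14 in 3D. In neither culture was there a second library per group, so none of these ratios has a replicate check.

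**Figure D2:**
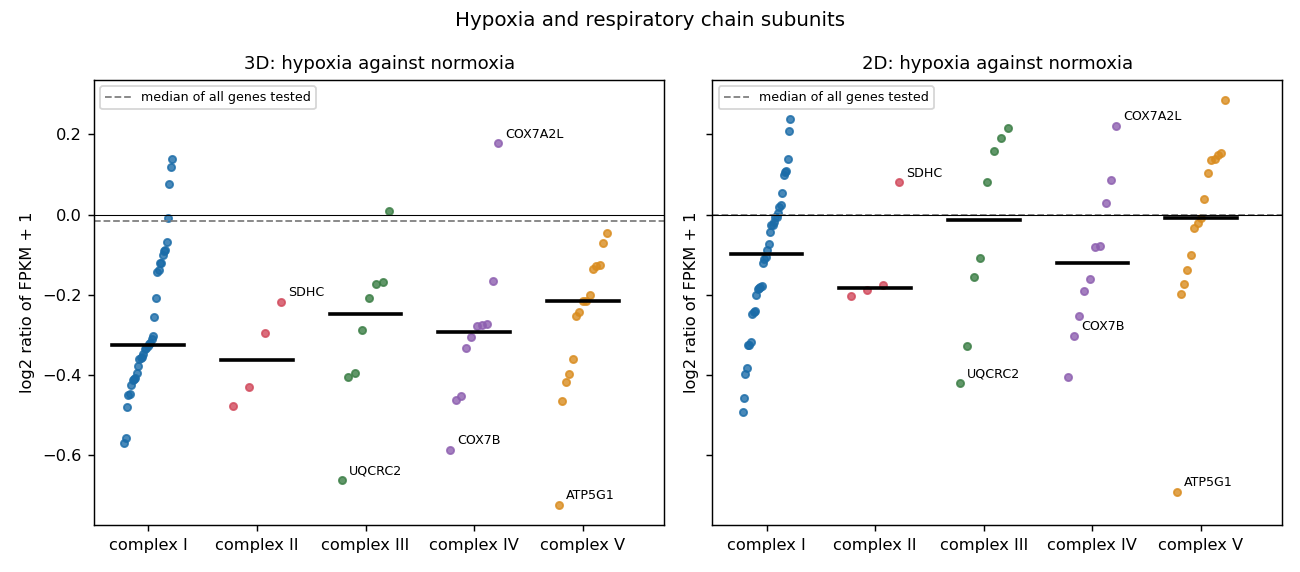
Log2 ratio of FPKM + 1, hypoxia against normoxia, for each subunit gene in 3D (left) and 2D (right), by complex; points are genes sorted within a complex, black bars are medians and the dashed line is the median of all genes tested. In 3D all 5 bars lie below the dashed line, at -0.22 to -0.36, and in 2D those of complexes III and V lie at -0.01.

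Both ratios were below 0 for 48 of 73 members, beside 36.7% of all genes, and both above 0 for 5. The other 20 were below 0 in 3D and above 0 in 2D, and 0 showed the opposite pattern. These sign counts hold for FPKM as reported, since equal-sum scaling left 12 of 73 members above 0 in 2D, against 25. The ratio was lower in 3D than in 2D for 63 of 73 members, beside 51.8% of all genes. This held for 10 of 10 members of complex IV, 4 of 4 of complex II, 14 of 15 of complex V, 7 of 8 of complex III and 28 of 36 of complex I. The difference of the ratios had a median of -0.22 over the members and -0.01 over all genes. With 1 library per group, that difference was not tested.

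**Figure D3:**
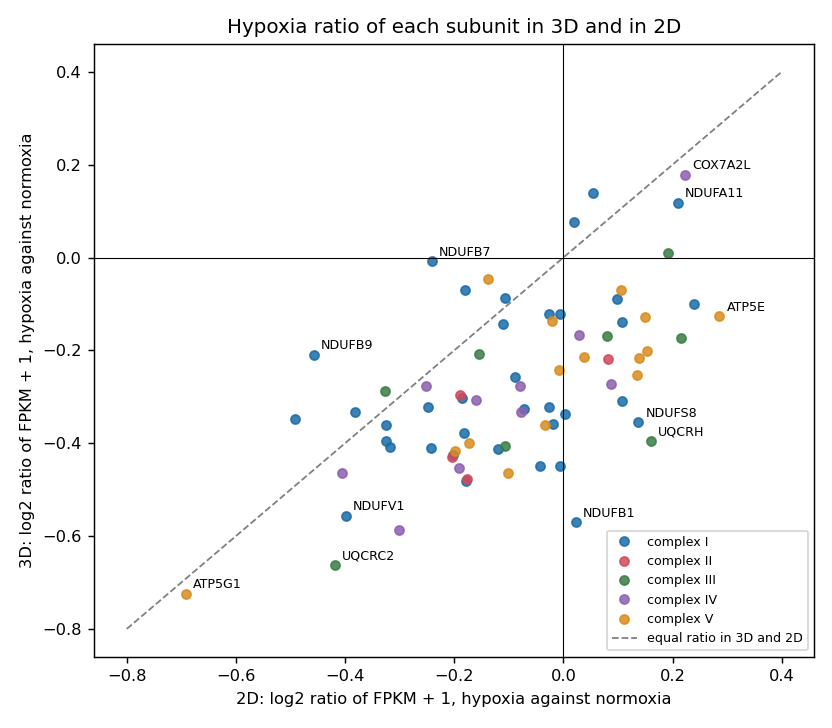
Log2 ratio of FPKM + 1 for hypoxia against normoxia in 3D (y axis) and 2D (x axis); each point is a subunit gene coloured by complex, labelled genes lie at the edges and the dashed line marks equal ratios. Of 73 points, 63 lie below the dashed line, and ATP5G1 lies lowest on both axes.

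Hypoxia as an average over both cultures is the contrast with an error term, from limma on all 4 libraries. By this test 1 of 73 members fell, ATP5G1, beside 1.64% of all genes, and 0 rose, beside 3.2%. Unadjusted p was under 0.05 for 15 members, beside 25.6% of all genes. The average effect was below 0 for 62 of 73 members, beside 51.7% of all genes, with a median of -0.18 on the log2 scale. Over all genes limma called 405 up and 208 down, and 303 up and 475 down under equal-sum scaling. The fit has 1 residual degree of freedom, in which noise and a different response of the cultures cannot be told apart. Limma also draws each gene's variance towards a trend over all genes, with a prior of 4.67 degrees of freedom. Its p-values thus rest on the spread of all genes over these libraries, and not on replicates.

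Complex I has 7 nuclear core subunits, among which are all holders of its flavin and iron-sulfur clusters, and their hypoxia ratios lay below those of the 29 accessory subunits by median. The core subunits had a median log2 hypoxia ratio of -0.41 in 3D and -0.24 in 2D, and the accessory subunits -0.30 and -0.07. NDUFV1, which binds NADH and FMN, stood at 64.1 FPKM in 3D hypoxia, 94.7 in 3D normoxia, 63.7 in 2D hypoxia and 84.3 in 2D normoxia. Its level was lower under hypoxia in both cultures, by ratios of -0.56 and -0.40, and the average of -0.48 ± 0.12 (SE) did not pass limma (adjusted p = 0.0891). NDUFV2, its iron-sulfur partner, stood at 128 FPKM in 3D hypoxia, 163 in 3D normoxia, 61.9 in 2D hypoxia and 87.4 in 2D normoxia. Hypoxia was the lower condition within each culture (-0.35 and -0.49), while both 3D libraries were above both 2D libraries. NDUFS1, the largest iron-sulfur subunit, stood at 22.3 FPKM in 3D hypoxia, 29.9 in 3D normoxia, 21.3 in 2D hypoxia and 26.8 in 2D normoxia. It too was lower in hypoxia in both cultures, with ratios of -0.41 and -0.32. Its average did not pass limma (adjusted p = 0.127).

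Grouped by the modules of complex I, the medians were lowest in the N and Q modules of the peripheral arm in 3D, while in 2D the Q module had the highest median. The N module, where NADH is oxidised (9 genes), had medians of -0.35 in 3D and -0.19 in 2D, with 8 of 9 below 0 in each culture. The Q module, where ubiquinone is reduced (7 genes), had medians of -0.36 in 3D (7 of 7 below 0) and -0.03 in 2D (5 of 7). The proximal membrane arm (9 genes) stood at -0.14 and -0.04, and the distal membrane arm (11 genes) at -0.26 and -0.07. This grouping was made after the values were known and was not tested. NDUFS4, an accessory subunit of the N module, stood at 88.6 FPKM in 3D hypoxia, 80.4 in 3D normoxia, 73.5 in 2D hypoxia and 70.7 in 2D normoxia. NDUFA11, a membrane subunit, stood at 111 FPKM in 3D hypoxia, 102 in 3D normoxia, 87.5 in 2D hypoxia and 75.6 in 2D normoxia. As reported, these levels were slightly higher in hypoxia in both cultures, with averages of 0.10 and 0.16 that did not pass limma (adjusted p = 0.656 and 0.437). The NDUFS4 ratio in 2D, 0.054, was smaller than its counting error of 0.056, so no difference was detectable there. Small ratios also depended on scaling, since equal-sum scaling left 2 of 73 members above 0 in 3D and 12 in 2D. NDUFB1, a distal subunit chosen after its values were seen, had the widest gap between cultures, with a ratio of -0.57 in 3D and 0.02 in 2D.

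Complex II oxidises succinate and also serves the citric acid cycle. SDHA, the flavoprotein that holds the succinate site, stood at 45.9 FPKM in 3D hypoxia, 56.6 in 3D normoxia, 60.4 in 2D hypoxia and 68.9 in 2D normoxia. SDHB, the iron-sulfur subunit, stood at 47.2 FPKM in 3D hypoxia, 63.9 in 3D normoxia, 46.6 in 2D hypoxia and 53.8 in 2D normoxia. Both catalytic subunits were lower in hypoxia in each culture, by -0.30 and -0.19 for SDHA and -0.43 and -0.20 for SDHB on the log2 scale. SDHC, a membrane anchor, stood at 40.7 FPKM in 3D hypoxia, 47.6 in 3D normoxia, 32.1 in 2D hypoxia and 30.3 in 2D normoxia. SDHD, the other anchor, stood at 34.5 FPKM in 3D hypoxia, 48.5 in 3D normoxia, 27.0 in 2D hypoxia and 30.7 in 2D normoxia. In 2D the SDHC ratio of 0.08 was smaller than its counting error of 0.10, so no difference was detectable there at this depth. None of the 4 genes passed limma for hypoxia (adjusted p from 0.189 to 0.782).

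In complex III both core proteins and the iron-sulfur protein were lower in hypoxia in both cultures. UQCRC2, a core protein, stood at 66.2 FPKM in 3D hypoxia, 105 in 3D normoxia, 60.1 in 2D hypoxia and 80.6 in 2D normoxia. Both hypoxia libraries lay below both normoxia libraries, and the average of -0.54 ± 0.13 (SE) did not pass limma (adjusted p = 0.077). It was called by limma under equal-sum scaling (-0.68, adjusted p = 0.0467) and once small RNA genes and genes listed at 0 were left out (adjusted p = 0.0393). UQCRFS1, the Rieske iron-sulfur protein, stood at 207 FPKM in 3D hypoxia, 252 in 3D normoxia, 165 in 2D hypoxia and 208 in 2D normoxia. UQCRC1, the other core protein, had ratios of -0.21 in 3D and -0.15 in 2D. The 3 together had medians of -0.29 in 3D and -0.33 in 2D, and the 5 other subunits -0.17 and 0.16. UQCRH, the acidic hinge protein, stood at 189 FPKM in 3D hypoxia, 249 in 3D normoxia, 208 in 2D hypoxia and 186 in 2D normoxia. UQCRQ, a small membrane subunit, stood at 69.2 FPKM in 3D hypoxia, 78.2 in 3D normoxia, 77.8 in 2D hypoxia and 66.9 in 2D normoxia. Both were thus lower in hypoxia in 3D and higher in hypoxia in 2D. UQCR10 had ratios of -0.41 and -0.11, and UQCRB, which helps bind ubiquinone, 0.01 and 0.19.

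The promoter of UQCRC2 is shown because it was the complex III gene nearest a call. The 250 bases before the start of each gene were taken from RefSeq (GRCh38.p14, another build than the hg19 of the files) for the 61 members with an entry, and for 15843 protein-coding genes in all. On both strands they were searched for ACGTG and GCGTG, the cores of hypoxia response elements, for CCGGAAG of ETS factors and for AANATGGC of YY1, spellings that can share letters where they lie side by side. ACGTG was found in 15 of 61 members, beside 20.8% of all promoters, and GCGTG in 30, beside 39.2%. The ETS spelling was found in 16 (11.8% of all) and the YY1 spelling in 4 (3.65%). A match is a description of letters, not a site or a cause. In the window of UQCRC2, chr16:21953111-21953360 on the plus strand, capitals mark ACGTG.
UQCRC2: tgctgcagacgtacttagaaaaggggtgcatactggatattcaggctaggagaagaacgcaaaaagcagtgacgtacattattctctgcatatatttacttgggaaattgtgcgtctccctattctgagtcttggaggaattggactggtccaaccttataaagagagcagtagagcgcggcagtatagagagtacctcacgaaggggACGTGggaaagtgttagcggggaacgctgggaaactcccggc

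Complex IV, cytochrome c oxidase, gave the highest hypoxia ratio of all 73 genes in 3D. COX7A2L, which helps join complexes into supercomplexes, stood at 142 FPKM in 3D hypoxia, 126 in 3D normoxia, 81.4 in 2D hypoxia and 69.7 in 2D normoxia. It was higher in hypoxia in both cultures (0.18 and 0.22). COX7A2, its paralogue and a subunit of the oxidase itself, stood at 141 FPKM in 3D hypoxia, 195 in 3D normoxia, 129 in 2D hypoxia and 171 in 2D normoxia. It was lower in hypoxia in both cultures (-0.46 and -0.41). COX7A2L therefore made up 50.2% of the pair's summed FPKM in 3D hypoxia, 39.2% in 3D normoxia, 38.7% in 2D hypoxia and 28.95% in 2D normoxia. Neither gene passed limma for hypoxia (adjusted p = 0.347 for COX7A2L and 0.108 for COX7A2).

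COX7B, a small membrane subunit, stood at 423 FPKM in 3D hypoxia, 635 in 3D normoxia, 354 in 2D hypoxia and 436 in 2D normoxia. COX8A, also small and membrane-bound, stood at 469 FPKM in 3D hypoxia, 643 in 3D normoxia, 455 in 2D hypoxia and 519.7 in 2D normoxia. Each was lower in hypoxia in both cultures, and the averages of -0.44 and -0.32 did not pass limma (adjusted p = 0.142 and 0.24). COX6A1 had ratios of -0.28 and -0.25, and COX6B1, on the cytochrome c side, -0.27 and 0.09. The window before COX7A2L, chr2:42361218-42361467 on the minus strand, is shown because the gene went against its complex, and capitals mark GCGTG.
COX7A2L: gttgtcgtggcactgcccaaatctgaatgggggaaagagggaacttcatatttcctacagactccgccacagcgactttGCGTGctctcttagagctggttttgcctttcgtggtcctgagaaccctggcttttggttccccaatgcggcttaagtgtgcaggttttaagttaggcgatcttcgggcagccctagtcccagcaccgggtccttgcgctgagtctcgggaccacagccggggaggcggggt

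Complex V gave the only member that limma called for hypoxia, ATP5G1. Subunit c, which forms the rotating ring, is made from ATP5G1, ATP5G2 and ATP5G3, whose mature proteins are the same. ATP5G1 stood at 184 FPKM in 3D hypoxia, 305 in 3D normoxia, 177 in 2D hypoxia and 287 in 2D normoxia. Both hypoxia libraries were far below both normoxia libraries, by -0.72 in 3D (counting error 0.06) and -0.69 in 2D (0.03). ATP5G1 fell by 0.71 ± 0.13 (SE) on the log2 scale (limma, adjusted p = 0.0446). The call was kept in 4 of 7 alternatives, and the adjusted p ran from 0.0173 to 0.142. It was lost with median-of-ratios size factors, without a variance trend and without a filter on low values.

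ATP5G2 stood at 387 FPKM in 3D hypoxia, 406 in 3D normoxia, 285 in 2D hypoxia and 265 in 2D normoxia, with a ratio of -0.07 in 3D and 0.10 in 2D. ATP5G3 stood at 50.4 FPKM in 3D hypoxia, 69.9 in 3D normoxia, 43.98 in 2D hypoxia and 47.2 in 2D normoxia. The summed level of the 3 genes was 621 FPKM in 3D hypoxia, 781 in 3D normoxia, 506 in 2D hypoxia and 599 in 2D normoxia. Within that sum the share of ATP5G1 was 29.7% in 3D hypoxia, 39.1% in 3D normoxia, 34.99% in 2D hypoxia and 47.9% in 2D normoxia. ATP5G1 and ATP5G2 have 8 and 5 RefSeq pseudogenes, which could have taken or given reads, so their values are uncertain to that extent.

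**Figure D4:**
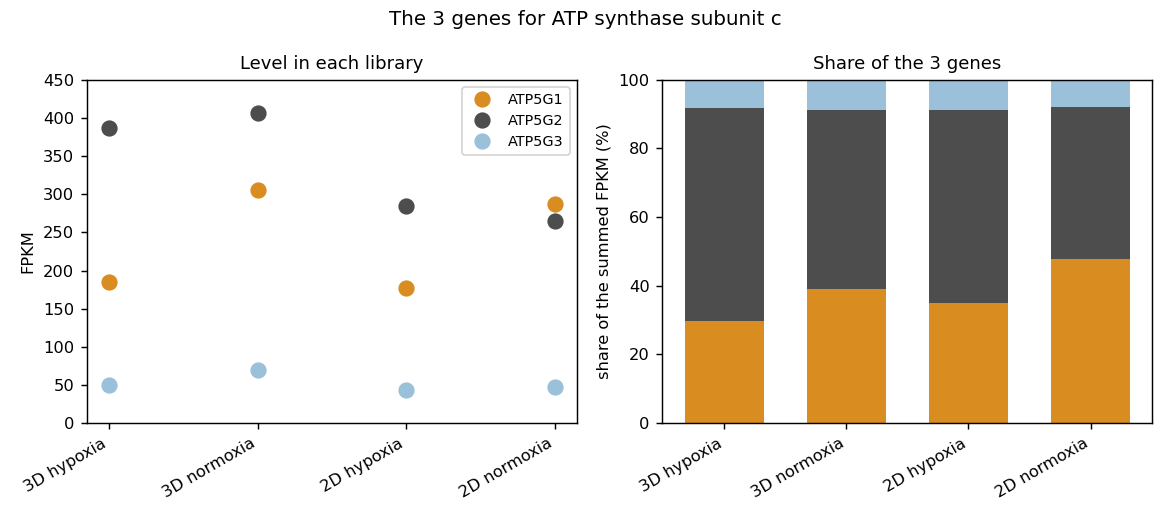
Left, FPKM of the 3 genes for ATP synthase subunit c in each library (1 library per point); right, each gene's share of their summed FPKM (%). ATP5G1 is lower in hypoxia in both cultures, with shares of 29.7% in 3D hypoxia against 39.1% in 3D normoxia and 34.99% in 2D hypoxia against 47.9% in 2D normoxia.

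The windows before ATP5G1 (chr17:48892537-48892786, plus strand) and ATP5G2 (chr12:53676084-53676333, minus strand) are shown because the genes encode the same ring protein and differed in their hypoxia ratios. No match to the 4 spellings lay in the window of ATP5G1. In that of ATP5G2, capitals mark ACGTG, read here on the other strand as CACGT, and GCGTG, read as CACGC.
ATP5G1: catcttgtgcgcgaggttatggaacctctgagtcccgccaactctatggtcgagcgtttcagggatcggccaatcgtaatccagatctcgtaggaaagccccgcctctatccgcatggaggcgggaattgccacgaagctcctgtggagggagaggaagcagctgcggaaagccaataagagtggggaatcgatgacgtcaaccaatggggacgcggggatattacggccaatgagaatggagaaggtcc
ATP5G2: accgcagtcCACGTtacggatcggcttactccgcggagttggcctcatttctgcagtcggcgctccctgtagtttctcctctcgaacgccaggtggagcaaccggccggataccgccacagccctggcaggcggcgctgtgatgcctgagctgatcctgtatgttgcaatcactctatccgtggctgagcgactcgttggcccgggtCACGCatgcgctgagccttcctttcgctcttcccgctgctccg

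The 5 genes of the F1 head, ATP5A1, ATP5B, ATP5C1, ATP5D and ATP5E, had medians of -0.14 in 3D and -0.02 in 2D. The 10 of the membrane part and stalk, ATP5G1 to ATP5G3 included, had medians of -0.25 and 0.01. By mean the F1 head lay higher in both cultures, at -0.19 and 0.01 against -0.31 and -0.04, so the order in 2D depended on the summary used. ATP5B, the catalytic beta subunit, stood at 369.8 FPKM in 3D hypoxia, 494 in 3D normoxia, 427 in 2D hypoxia and 490.1 in 2D normoxia. It was lower in hypoxia in both cultures, by -0.42 and -0.20. ATP5E, the epsilon subunit, stood at 781 FPKM in 3D hypoxia, 852 in 3D normoxia, 753 in 2D hypoxia and 618 in 2D normoxia. Its ratio was -0.13 in 3D and 0.29 in 2D, the highest of all members in 2D. ATP5F1, the b subunit of the stalk, had ratios of -0.40 and -0.17, ATP5J, a stalk coupling factor, -0.20 and 0.15, and ATP5J2, a membrane subunit, -0.25 and 0.14. ATP5J2 overlaps a readthrough symbol at 3.16 to 5.83 FPKM. ATP5L had ratios of -0.24 and -0.01. None of these genes passed limma for hypoxia (adjusted p from 0.217 to 0.937).

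The second question was how the chain differed between the cultures. In hypoxia the members had a median log2 ratio of 0.16 (3D over 2D), with 59 of 73 above 0, beside 47.0% of all genes. In normoxia the median was 0.38, a ratio of 1.30, with 68 of 73 above 0, beside 46.9%. The complex medians in hypoxia were 0.20 for complex I, 0.19 for complex IV, 0.18 for complex II, 0.15 for complex III and 0.12 for complex V. In normoxia they were 0.47 for complex IV, 0.44 for complex II, 0.40 for complex III, 0.37 for complex V and 0.34 for complex I. The distance between complex medians was again smaller than the SD over members, 0.25 at both oxygen levels. At both oxygen levels 58 of 73 members were above 0, beside 36.0% of all genes, and 4 were below 0. Only NDUFV2 differed by 2-fold, in hypoxia (beside 6.82% of all genes), and 0 members did in normoxia (beside 4.47%).

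The hypoxia values depended on scaling. Under equal-sum scaling, the members' median for 3D over 2D was -0.04 in hypoxia, with 34 of 73 above 0, and 0.19 in normoxia, with 55 of 73 above 0. The median of all genes moved by about as much, to -0.21 in both comparisons against -0.03 before, so that the members stayed above it.

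**Figure D5:**
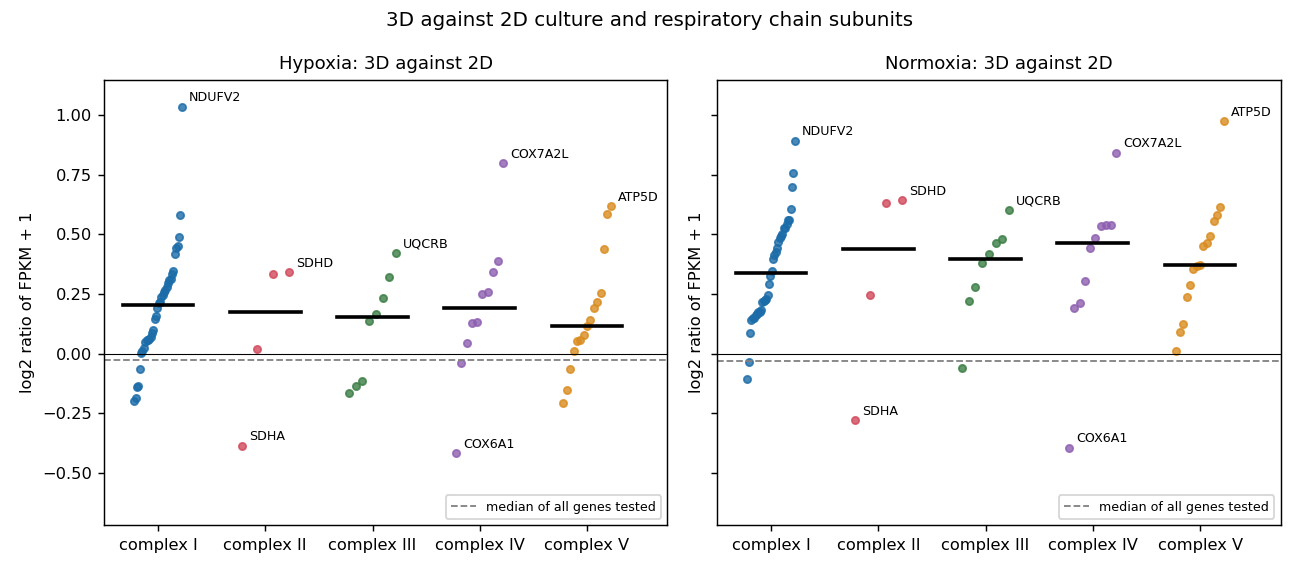
Log2 ratio of FPKM + 1, 3D against 2D, for each subunit gene in hypoxia (left) and normoxia (right), by complex; points are genes sorted within a complex, black bars are medians and the dashed line is the median of all genes tested. All 5 bars lie above 0 in both panels, at 0.12 to 0.20 and 0.34 to 0.47 (in hypoxia those of complexes II to V lie below 0 under equal-sum scaling), and SDHA and COX6A1 lie lowest.

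Averaged over oxygen, 12 of 73 members rose in 3D by limma, beside 10.4% of all genes, and 0 fell, beside 11.6%. Unadjusted p was under 0.05 for 29 members, beside 40.3% of all genes. Under equal-sum scaling, 3 members rose (NDUFV2, COX7A2L and ATP5D) and 2 fell (COX6A1 by 0.61 and SDHA by 0.53 on the log2 scale), while the calls over all genes moved from 1313 up and 1472 down to 767 up and 3132 down. With no filter on low values 0 members were called, and 28 of 73 had an unadjusted p under 0.05, beside 5630 of 19356 genes.

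In complex I, 5 of 36 members rose in 3D, beside 10.4% of all genes, and 34 of 36 had an average above 0, beside 47.3%. NDUFV2, whose 4 levels are given above, rose by 0.96 ± 0.12 (SE) on the log2 scale (limma, adjusted p = 0.0111), with ratios of 1.04 in hypoxia and 0.89 in normoxia. Of 7 alternatives, the limma call was lost with no filter on low values (adjusted p = 0.0553) and kept in the other 6. NDUFA5, the least abundant member, rose by 0.59 ± 0.14, and has 12 RefSeq pseudogenes. NDUFB5, a distal membrane subunit, stood at 47.0 FPKM in 3D hypoxia, 51.8 in 3D normoxia, 34.1 in 2D hypoxia and 31.6 in 2D normoxia. NDUFB11, of the same arm, stood at 103 FPKM in 3D hypoxia, 113 in 3D normoxia, 75.7 in 2D hypoxia and 76.1 in 2D normoxia. NDUFA13, a proximal subunit also known as GRIM-19, stood at 238 FPKM in 3D hypoxia, 253 in 3D normoxia, 169 in 2D hypoxia and 183 in 2D normoxia. For all 3, both 3D libraries were above both 2D libraries, and they rose by 0.57, 0.50 and 0.48 (limma, adjusted p = 0.0306, 0.0389 and 0.0481). By module, the medians in hypoxia and normoxia were 0.24 and 0.42 for the proximal and 0.22 and 0.48 for the distal membrane arm, against 0.10 and 0.18 for the N module and 0.00 and 0.29 for the Q module. NDUFA9, a Q module subunit, was among the lowest (-0.14 and -0.11, limma adjusted p = 0.453).

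The complex II anchors SDHC and SDHD rose by 0.48 ± 0.13 and 0.49 ± 0.13 (SE) on the log2 scale (limma, adjusted p = 0.0498 and 0.0476), with both 3D libraries above both 2D libraries. SDHB lay at 0.02 in hypoxia and 0.24 in normoxia. SDHA went the other way, at -0.39 and -0.28, with both 3D libraries below both 2D libraries, and its average of -0.33 did not pass (limma, adjusted p = 0.0923). SDHA was the most abundant of the 4 genes in both 2D libraries, while SDHB was so in both 3D libraries. The calls of SDHC and SDHD were kept in 2 and 4 of 7 alternatives. These genes have 5 (SDHC), 7 (SDHD) and 4 (SDHA) RefSeq pseudogenes, so their values are uncertain.

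In complex III, UQCRB rose in 3D. It stood at 32.8 FPKM in 3D hypoxia, 32.6 in 3D normoxia, 24.2 in 2D hypoxia and 21.1 in 2D normoxia, with little difference between oxygen levels and an average culture effect of 0.51 ± 0.12 (SE, limma, adjusted p = 0.0349). UQCR11, a small subunit, lay at 0.23 in hypoxia and 0.48 in normoxia (limma, adjusted p = 0.0947). UQCRC1 lay at -0.11 and -0.06, the only member of this complex below 0 at both oxygen levels.

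In complex IV, COX7A2L rose by 0.82 ± 0.12 (SE) on the log2 scale (limma, adjusted p = 0.0136), with 3D over 2D at 0.80 in hypoxia and 0.84 in normoxia. Its lowest level in 3D, 126 FPKM, was above its highest in 2D, 81.4. COX5B, a subunit on the matrix side, had an average of 0.46 (limma, adjusted p = 0.0589). COX6A1 stood at 514 FPKM in 3D hypoxia, 623 in 3D normoxia, 688 in 2D hypoxia and 819 in 2D normoxia. It was the most abundant complex IV gene in 2D normoxia and the lowest member by culture ratio, at -0.42 in hypoxia and -0.40 in normoxia (average -0.41 ± 0.14, limma adjusted p = 0.0906).

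In complex V, ATP5D, ATP5C1 and ATP5G2 rose in 3D. ATP5D, the delta subunit of the rotor, stood at 72.5 FPKM in 3D hypoxia, 84.4 in 3D normoxia, 46.9 in 2D hypoxia and 42.5 in 2D normoxia. ATP5C1, the gamma subunit that forms the central shaft, stood at 218 FPKM in 3D hypoxia, 225 in 3D normoxia, 145 in 2D hypoxia and 159 in 2D normoxia. For these genes and for ATP5G2, both 3D libraries were above both 2D libraries, and they rose by 0.80, 0.54 and 0.53 (limma, adjusted p = 0.0194, 0.0364 and 0.0465). The catalytic ATP5A1 and ATP5B lay closer to 0, with averages of 0.07 and -0.10 (limma, adjusted p = 0.722 and 0.641). ATP5G1, called for hypoxia, had culture ratios of 0.06 and 0.09. The gene that dominated the subunit c sum therefore differed, since ATP5G2 was the highest of the trio in both 3D libraries and in 2D hypoxia and ATP5G1 in 2D normoxia.

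Of 11 subunits and close partners outside the symbol rule, 10 had a mean of at least 1 FPKM. For hypoxia limma called 0 of these 10, beside 3.2% of all genes up and 1.64% down. NDUFA4L2, a paralogue of NDUFA4 known as a HIF target, stood at 12.1 FPKM in 3D hypoxia, 0.314 in 3D normoxia, 0.957 in 2D hypoxia and 0.5 in 2D normoxia. It was thus high in a single library, and its average did not pass (limma, adjusted p = 0.15). CYC1, the cytochrome of complex III, stood at 119 FPKM in 3D hypoxia, 181 in 3D normoxia, 121 in 2D hypoxia and 161 in 2D normoxia, with ratios of -0.60 and -0.41 close to those of UQCRC2. ATPIF1, which inhibits the ATP synthase when it runs backwards, had hypoxia ratios of -0.43 and -0.61 (limma, adjusted p = 0.0797). ATP5S, a factor tied to the synthase, rose in 3D by 0.70 ± 0.13 (SE, limma adjusted p = 0.023), 1 of the 10, beside 10.4% of all genes. For comparison by transcript length, 6508 other genes of the members' lengths (490.3 to 1909 bases) had medians of -0.03, -0.02, 0.04 and 0.05 in the comparisons of hypoxia in 3D, hypoxia in 2D, culture in hypoxia and culture in normoxia.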

How the data were processed

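RNA from 4 A549 cultures was sequenced as stranded mRNA libraries, 1 per group. The authors deposited 1 table of FPKM per gene symbol for each library, for which the submitters' processing notes name hg19, Cuffdiff 2.2.1, TopHat2 2.1.1 with Bowtie2 2.2.8, and SAMtools 0.1.18. The sources used here give no annotation, strand setting or read depth. Depth was inferred from the commonest low product of FPKM and length among 2198 single-transcript genes, with GENCODE 29 lengths, and counting errors cover sampling of fragments only.

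Values were analysed as log2(FPKM + 1) for genes averaging 1 FPKM or more. Pairs of libraries were described without a test. Average effects of oxygen and culture came from an additive limma 3.58.1 model (R 4.3.3, variance trend) with Benjamini-Hochberg adjustment over all genes tested at 0.05. The step was also run on simulated data, which were additive by design, with independent noise drawn from the fitted model. That run cannot show how the test behaves where the cultures respond differently. FPKM are not counts, so no count model was used. Nothing in the labels says that libraries came from separate cultures, so p-values may measure technical spread. That spread also holds any different response of the cultures to oxygen.

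Named genes were all of complex II, every gene called, the 3 lowest and 2 highest hypoxia effects, the 2 lowest and 2 highest culture effects and the extremes of level in each other complex, and isoform pairs; 1 gene that this rule names is not reported here. NDUFB1 and other genes outside this rule were chosen after their values were seen. The members and lists were chosen with earlier results of these data known. Columns of other series numbered 0. RefSeq (GRCh38.p14) gave promoters and pseudogene names. Pseudogenes were found for 46 of 73 members, at most 18 (COX6C), and the sources do not say how shared reads were counted. Python 3.11.15, numpy 2.4.6, pandas 2.3.3 and matplotlib 3.10.9 were used.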

Additional observations from a re-analysis of the deposited data

Results flagged for a closer look

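With 1 library per group, none of the differences in this section was tested. For 14 subunit genes named in the text the hypoxia ratio (log2 of FPKM + 1, hypoxia over normoxia) was below 0 in 3D and above 0 in 2D. This holds for FPKM as reported. Equal-sum scaling left 12 of 73 members above 0 in 2D, against 25, so the signs of small 2D ratios depend on scaling. In complex V, ATP5D had a hypoxia ratio of -0.22 in 3D and 0.14 in 2D, ATP5E -0.13 and 0.29, ATP5G2 -0.070 and 0.10, ATP5J -0.20 and 0.15, and ATP5J2 -0.25 and 0.14. In complex IV, COX6B1 had -0.27 in 3D and 0.09 in 2D, and COX7C -0.17 and 0.03. In complexes I and II, NDUFA5 had -0.10 in 3D and 0.24 in 2D, NDUFB5 -0.14 and 0.11, and SDHC -0.22 and 0.08. NDUFB1, chosen after its values were seen, had -0.57 in 3D and 0.023 in 2D. The 2D ratios of NDUFB1 and SDHC and the 3D ratio of NDUFA5 were smaller than their counting errors (0.05, 0.10 and 0.18). No difference was detectable there at this depth. In complex III, UQCR11 had -0.17 in 3D and 0.08 in 2D, UQCRH -0.39 and 0.16, and UQCRQ -0.17 and 0.22. A ratio above its counting error is not thereby a detected difference. The UQCR11 ratio in 2D was little above its error of 0.06, so its sign is uncertain too.

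The culture ratio (3D over 2D) was below 0 in hypoxia and above 0 in normoxia for some genes, of which ATP5J, ATP5J2, NDUFB1, UQCRH and UQCRQ are also given above. It was -0.21 in hypoxia and 0.01 in normoxia for ATP5B, -0.067 and 0.29 for ATP5J, -0.15 and 0.24 for ATP5J2, and -0.040 and 0.21 for COX6C. UQCRH had a culture ratio of -0.14 in hypoxia and 0.42 in normoxia, NDUFB1 -0.067 and 0.53, and UQCRQ -0.17 and 0.22. CYC1, outside the symbol rule, had -0.019 in hypoxia and 0.17 in normoxia, and NDUFA4L2 had 2.75 in hypoxia and -0.19 in normoxia. Of the assembly factors, COA5 had hypoxia ratios of 0.084 in 3D and -0.088 in 2D, and NDUFAF3 0.030 in 3D and -0.26 in 2D. Both COA5 ratios were smaller than their counting errors (0.16 and 0.12), as was the NDUFAF3 ratio in 3D (0.09). So were the culture ratios of ATP5B in normoxia (error 0.03), COX6C and CYC1 in hypoxia (0.06 and 0.04) and NDUFA4L2 in normoxia (0.79). No difference was detectable in these at this depth. The culture ratios of ATP5J and NDUFB1 in hypoxia were barely above their counting errors (0.065 and 0.061), so their signs are uncertain too. The hypoxia and culture ratios use the same 4 libraries and are not independent.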

How the results depend on the processing

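Equal-sum scaling (every library brought to a sum of 1000000) moved most complex medians, all genes included. Hypoxia medians in 3D were then -0.46 (I), -0.50 (II), -0.38 (III), -0.43 (IV) and -0.35 (V), and in 2D -0.23, -0.32, -0.15, -0.25 and -0.14 for complexes I to V. Culture medians (3D over 2D) in hypoxia were 0.0085 for complex I and changed sign to -0.017 (II), -0.043 (III), -0.0051 (IV) and -0.079 (V), and in normoxia they were 0.14, 0.25, 0.20, 0.27 and 0.17 for complexes I to V. The mean in place of the median gave 0.31 for complex II in normoxia, and leaving out members with a copy among the symbols gave -0.13 for complex III in 2D hypoxia. Genes at least 2-fold different between 3D and 2D in normoxia numbered 899 under equal-sum scaling (195 higher, 704 lower) and 924 with a pseudocount of 0.1, against 566 as reported (251 higher, 315 lower), and 698 with that pseudocount against 456 for hypoxia in 2D. Higher and lower 2-fold genes split 327 and 236 under that scaling for hypoxia in 3D, against 368 and 141 as reported, 236 and 341 against 255 and 201 for hypoxia in 2D, and 407 and 731 against 481 and 383 for 3D over 2D in hypoxia. By limma, hypoxia called 5 genes with no filter, 349 with median-of-ratios size factors, 366 without a variance trend and 1286 once small RNA genes and those listed at 0 were dropped, against 613 as reported. Members called for hypoxia numbered 0 with no filter, median-of-ratios or no trend, and 2 under equal-sum scaling or without small RNA genes. In the first 3 of these settings 18, 11 and 11 of 73 members had an unadjusted p under 0.05. Over all genes the counts were 3589 of 19356, 3106 of 12663 and 3125 of 12663. Culture called 3 genes and 0 members with no filter (2785 and 12 as reported), and 5 members under equal-sum scaling. Once small RNA genes and those listed at 0 were dropped, 17 members rose, beside 1750 up and 1925 down of 12550 genes. At a floor of 5 FPKM, 13 members rose, beside 1292 up and 1387 down of 9159 genes. The cause was not tested. No paired analysis was possible because each group has 1 library, and leaving a library out leaves no residual degree of freedom. Leaving out NDUFA5 and ATP5J2 was chosen after seeing the data. Depth limits low members most, with a counting error of up to 0.18 for NDUFA5.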

Other observations

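By hypoxia limma called 3.2% of all genes up and 1.64% down, and by culture 10.4% up and 11.6% down, beside which the counts for these lists stand. Of 13 factors that assemble complex I, NDUFAF1 fell with hypoxia, by 0.74 ± 0.12 (SE) on the log2 scale (limma, adjusted p = 0.0371), and stood at 6.79 FPKM in 3D hypoxia, 11.1 in 3D normoxia, 6.96 in 2D hypoxia and 13.4 in 2D normoxia. Both hypoxia libraries lay below both normoxia libraries. With no filter on low values limma called 5 genes up and 0 down for hypoxia, so the NDUFAF1 call was lost there. NDUFAF3 rose in 3D by 0.52 ± 0.13 (limma, adjusted p = 0.041). Of 4 complex II assembly factors, SDHAF3 and SDHAF4 rose in 3D, by 0.66 and 0.57 (limma, adjusted p = 0.0227 and 0.0257). Of 22 complex IV factors, 19 in 3D (beside 52.0% of all genes) and 16 in 2D (50.3%) had hypoxia ratios below 0 and 0 were called for hypoxia, while COA3, COA4 and COA5 rose in 3D by 0.52, 0.47 and 0.53 (limma, adjusted p = 0.0456, 0.044 and 0.0321). None of the 6 complex III or 3 complex V factors was called in either effect.

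Of 12 regulators of mitochondrial gene expression tested, 2 fell in 3D and 0 rose. PPRC1, a relative of the coactivator PGC-1 alpha, stood at 14.4 FPKM in 3D hypoxia, 14.9 in 3D normoxia, 23.3 in 2D hypoxia and 24.0 in 2D normoxia. It fell in 3D by 0.66 ± 0.11 (SE) on the log2 scale (limma, adjusted p = 0.0187), and POLG, the mitochondrial DNA polymerase, fell by 0.51 ± 0.12 (limma, adjusted p = 0.0406). Among 16 other mitochondrial proteins, TOMM20, an import receptor, rose in 3D by 0.66 ± 0.12 (limma, adjusted p = 0.0214). It stood at 98.5 FPKM in 3D hypoxia, 75.2 in 3D normoxia, 65.6 in 2D hypoxia and 44.8 in 2D normoxia, with hypoxia ratios of 0.38 and 0.54. Most of this list went the other way. Of the 16 genes, 12 in 3D and 10 in 2D had hypoxia ratios below 0, beside 52.0% and 50.3% of all genes. Calls for culture and for hypoxia depended on the filter, as for the subunits.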
